A study of Mus musculus with 4 samples.

Results

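Neutrophils, mast cells, basophils and eosinophils are granulocytes or granule-bearing cells, and each stores its own set of proteins. The 33 genes described here are transcripts by which these cells are usually recognised, listed by name and looked up by Ensembl identifier in libraries of sorted tumour macrophages. All 33 were found among the 53379 identifiers of the count table, and 2 of them, Stfa2 and Stfa3, had 0 counts in every library. Neutrophils make their granule proteins in order while they mature in the bone marrow, first the primary (azurophil) and then the secondary and tertiary granules, and the mature cell is rich in the calcium-binding proteins S100A8 and S100A9. Mast cells hold histamine, heparin and the proteases tryptase, chymase and carboxypeptidase A3. Eosinophils hold the major basic protein and eosinophil peroxidase.

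The RNA came from tumours of the MC38 model, a mouse colon carcinoma line, taken 21 days after implantation. Cells had been sorted as positive for CD45, a protein of all leukocytes, for CD11b, an integrin chain of myeloid cells that neutrophils and eosinophils carry too, and for F4/80, a macrophage antigen that mouse eosinophils can also carry. The high-fat-diet group was 2 mice fed a high-fat diet and the control-diet group was 2 mice fed a control diet, and all 4 carried the same tumour model. The sources used here do not give strain, age, sex, or the make-up and length of the diets. Each library is labelled as its own mouse, so n = 2 per diet, and the libraries are called HFD1 and HFD2 (high-fat diet) and CD1 and CD2 (control diet).

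Libraries held 34148682 to 37159552 counts, and macrophage transcripts stood at high levels in all 4. Per kilobase of exon, the level of the complement gene C1qa was 1406 to 3071 and that of the lysosomal gene Cd68 464 to 686 CPM (counts scaled to a library of 1e+06). On the same scale Adgre1, which encodes F4/80, stood at 69.7 to 117 and Itgam, which encodes CD11b, at 69.3 to 95.9. The summed level of 11 macrophage identity genes was 13574 and 14277 CPM in HFD1 and HFD2, and 9775 and 13494 CPM in CD1 and CD2, so it was lowest in CD1. Of these 11 genes edgeR called 0 between the diets at an adjusted p below 0.05, 1 had an unadjusted p under that value, and DESeq2 called 0. Markers of other cells differed between libraries. The summed level of 8 dendritic cell markers was 21.4 and 27.7 CPM in HFD1 and HFD2, and 90.5 and 55.2 CPM in CD1 and CD2. Of these 8, edgeR called 2 lower and 0 higher, beside 7.91% and 2.61% of all tested genes. Of the 2, Cd209a passed the minimum count for a test through CD1 and CD2 alone. For 6 epithelial and tumour markers the summed level was 39.4 and 45.9 against 155 and 109 CPM. Most of it was Cdh1, at 38.5 and 45.2 against 144 and 57 CPM. The other 5 markers were higher in CD2 than in CD1, with CPM ratios of CD1 over CD2 from 0.143 (Krt8) to 0.271 (Krt18). Of the 6, edgeR called 5 lower and 0 higher, where 7.91% of all tested genes were called lower. Their median log2 fold change (high-fat minus control diet) was -6.63. Krt8, Krt18, Krt19 and Cldn3 passed the minimum count for a test through CD1 and CD2 alone, so a difference in them was built into the filter. The 7 fibroblast markers summed to 2040 and 2023 against 1024 and 773 CPM. Of these 7, edgeR called 5 higher and 0 lower, where 2.61% of all tested genes were called higher. The 8 classical monocyte markers summed to 1084 and 674 against 1654 and 644 CPM, the 9 markers of T and NK cells to 33.4 and 29.7 against 107 and 27.7 CPM, and the 5 B cell markers to 201 and 187 against 112 and 221 CPM. Of these 3 lists edgeR called 0, 1 and 1 genes lower and 0, 1 and 0 higher. Most of the B cell sum was Ighm, at 186 and 170 against 101 and 203 CPM. Mitochondrial transcripts took 2.67% and 1.59% of the counts in HFD1 and HFD2, and 0.757% and 1.2% in CD1 and CD2. The part of the macrophage sum, of these other cells and of this share in the results below was not tested. Nor can fewer cells of a type and less RNA per cell be told apart in bulk RNA.

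Granulocyte and mast cell transcripts stood at lower summed levels in HFD1 and HFD2. The 33 genes together came to 66.2 and 66.6 CPM in HFD1 and HFD2 and to 270 CPM in CD1 and 124 CPM in CD2. Of the 33, 22 reached the minimum count for a test and 11 of these were called lower at an edgeR adjusted p below 0.05, where 7.91% of all 18422 tested genes were called lower. No member was called higher (0 by edgeR, 0 at an unadjusted p below 0.05 and 0 by DESeq2), against 2.61% of all genes. The median log2 fold change of the 22 was -3.01, and 0.00 over all tested genes. Of the 22, 8 passed the minimum through CD1 and CD2 alone, so a difference in them was built into the filter. They were Mpo, Ngp, Ly6g and Retnlg, which were called, and Stfa2l1, Tpsab1, Cpa3 and Mcpt4, which were not. Of the others, Lcn2, Tpsb2 and Cma1, all called, passed it in CD1, CD2 and 1 high-fat-diet library, and Ltf in 1 library of each diet. The share of members called is therefore given as a description. In 17 of the 22 both high-fat-diet libraries lay below both control-diet libraries (31.6% of all tested genes did), and in 2, Fpr1 and Fpr2, they lay above them (32.2% of all tested genes did). Without HFD1 there were 3 members called lower, without HFD2 there were 2, without CD1 there were 10 and without CD2 there were 15. S100a8 and Lcn2 were the members called in each of these 4 fits.

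**Figure D1:**
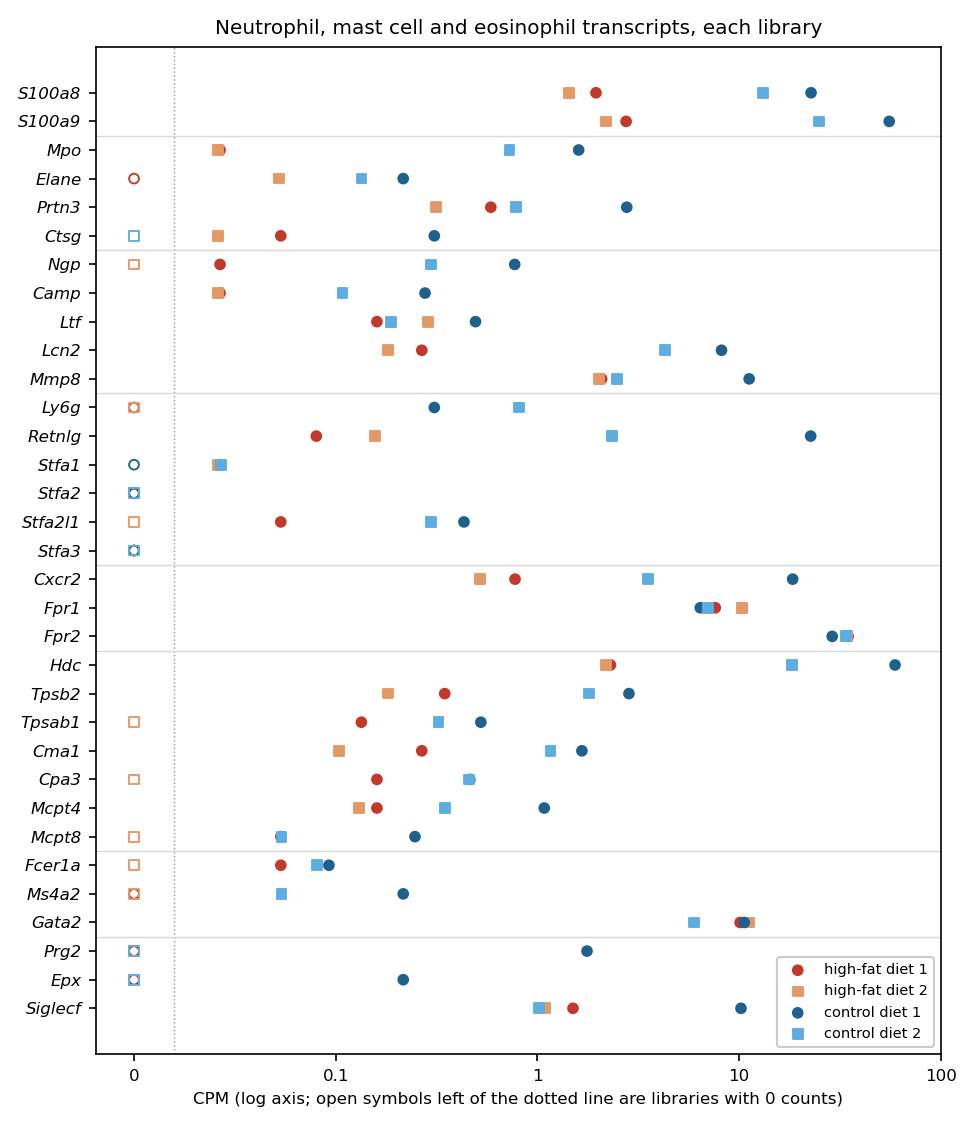
CPM of each of the 33 genes in each of the 4 libraries on a log axis, grouped by role, with libraries of 0 counts drawn as open symbols at the left. S100a9 runs from 2.19 to 55.4 CPM with the diets apart, Fpr2 stays between 28.9 and 34.7 CPM, and Prg2 and Epx have counts in CD1 alone.

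The neutrophil alarmins S100a8 and S100a9 had the highest levels of the set per kilobase of exon on average over CD1 and CD2, and both fell. Their products form calprotectin, a dimer that binds calcium, zinc and manganese and that neutrophils release in inflammation. S100a8 (chromosome 3, 90668978 to 90670035, GRCm38) stood at 1.95 and 1.43 CPM in HFD1 and HFD2 and at 22.7 and 13.1 CPM in CD1 and CD2. The diets did not overlap, and the fall was 10.6-fold (log2 fold change -3.40, SE 0.35, edgeR adjusted p = 0.00944). Its neighbour S100a9 (chromosome 3, 90692632 to 90695721) lies on the opposite strand and stood at 2.75 and 2.19 CPM against 55.4 and 24.8 CPM. S100a9 fell 16.2-fold (log2 fold change -4.02, SE 0.43, adjusted p = 0.0102), with CD1 the higher of its pair for both genes. Its call ended without HFD1 (adjusted p = 0.101) and without HFD2 (0.0851), and its log2 fold change was -3.32 without CD1. Per kilobase of exon, S100a9 had 76.8 CPM on average in CD1 and CD2 and 4.73 CPM in HFD1 and HFD2. The level of S100a8 on this scale was 25.8 and 2.44 CPM, and that of Adgre1 93.1 and 99.7 CPM.

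The start regions of this pair are shown because the genes moved together, followed by those of Hdc, which after S100a9 had the highest mean CPM in CD1 and CD2 of the members called, and Fpr2, an abundant member that was not called. Each is the RefSeq window of GRCm38.p6 from 250 bases before to 50 bases after the start site, 5′ to 3′ on the strand of the gene. For S100a8 and Hdc the RefSeq start site lies inside the gene interval given in the text, so distances hold for the RefSeq start alone. Capitals mark every match on either strand to TTNNGNAA, a form of the C/EBP site, or to the GATA forms AGATAA and TGATAA. S100a8 is at chr3:90668821-90669120 on the plus strand, S100a9 at chr3:90695672-90695971 on the minus strand, Hdc at chr2:126618629-126618928 on the minus strand and Fpr2 at chr17:17887574-17887873 on the plus strand.
S100a8: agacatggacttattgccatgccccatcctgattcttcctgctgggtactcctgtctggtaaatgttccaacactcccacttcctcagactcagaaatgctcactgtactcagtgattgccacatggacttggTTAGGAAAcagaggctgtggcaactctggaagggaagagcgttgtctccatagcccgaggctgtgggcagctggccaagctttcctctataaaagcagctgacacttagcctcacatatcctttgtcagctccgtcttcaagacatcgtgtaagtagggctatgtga
S100a9: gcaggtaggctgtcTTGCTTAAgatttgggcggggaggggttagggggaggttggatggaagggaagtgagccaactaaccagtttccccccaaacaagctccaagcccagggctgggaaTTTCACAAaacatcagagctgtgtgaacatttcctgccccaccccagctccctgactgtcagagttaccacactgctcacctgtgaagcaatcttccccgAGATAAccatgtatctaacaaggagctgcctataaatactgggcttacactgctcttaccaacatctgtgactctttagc
Hdc: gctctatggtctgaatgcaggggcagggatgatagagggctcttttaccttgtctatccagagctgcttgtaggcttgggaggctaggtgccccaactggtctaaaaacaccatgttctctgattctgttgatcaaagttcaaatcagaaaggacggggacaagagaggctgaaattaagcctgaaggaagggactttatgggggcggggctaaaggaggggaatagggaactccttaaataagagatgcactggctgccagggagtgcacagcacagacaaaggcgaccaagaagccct
Fpr2: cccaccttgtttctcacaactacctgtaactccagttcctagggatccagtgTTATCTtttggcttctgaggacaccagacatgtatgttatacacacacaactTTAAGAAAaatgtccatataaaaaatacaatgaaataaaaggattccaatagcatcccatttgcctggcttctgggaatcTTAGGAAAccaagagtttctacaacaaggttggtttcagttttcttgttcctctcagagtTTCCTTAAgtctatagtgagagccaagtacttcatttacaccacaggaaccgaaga

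C/EBP proteins drive granule genes in maturing neutrophils, and GATA factors act in mast cells, basophils and eosinophils. The window of S100a8 held 1 match to TTNNGNAA, starting 117 bases before the start site. That of S100a9 held 2, at 236 and 130 bases before it, and an AGATAA match 30 bases before it. Hdc had no match to any of these forms in its window, and Fpr2 had 3 matches to TTNNGNAA and 1 to AGATAA. RefSeq windows matched 30 of the 33 members, not Tpsb2, Tpsab1 and Prg2, and 2 members, Gata2 and Ly6g, had a pair of windows, which made 32. TTNNGNAA occurred in 17 of these 32 and in 40.7% of 32851 windows of all genes, AGATAA in 8 and 11.2%, and TGATAA in 2 and 9.05%. The palindrome TTGCGCAA occurred in 0 of the 32 and in 0.183% of all. The CREB forms TGACGTCA and TGACG, the second contained in the first, occurred in 0 of the 32 and in 1.79% and 20.8% of all.

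Several neutrophil granule genes fell. The primary granule holds myeloperoxidase and the serine proteases elastase, proteinase 3 and cathepsin G. Mpo, the myeloperoxidase gene, had 1 count in each of HFD1 and HFD2 and 52 and 27 counts in CD1 and CD2, or 1.6 and 0.726 CPM. It was called lower (adjusted p = 0.0196), and the ratio of control to high-fat diet was 43 (exact 95% interval 11.5 to 361, counting error only). Mpo passed the minimum through CD1 and CD2 alone, so a difference in it was built into the filter. A reverse-strand transcript, Gm11505, overlaps Mpo with 0 counts in each library. Prtn3, the proteinase 3 gene, had 0.587 and 0.313 CPM against 2.77 and 0.78 CPM, with the diets apart and an adjusted p of 0.119. It overlaps Plppr3 on the opposite strand, which had 166 and 208 against 407 and 366 counts, and the sources used here do not say whether the counting used strand. Elane, the elastase gene, had 0 and 2 against 7 and 5 counts, and Ctsg, the cathepsin G gene, 2 and 1 against 10 and 0 counts. Elane and Ctsg had too few counts for the test. Mpo lost its call without HFD1 (adjusted p = 0.0732) and without HFD2 (0.0705), and its log2 fold change of -5.28 was -4.61 without CD1. Without CD2, Prtn3 was called lower (adjusted p = 0.00409).

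Among secondary and tertiary granule genes, Lcn2 and Ngp fell, and the call of Lcn2 held in each fit without 1 library. Lcn2 encodes lipocalin 2, which binds bacterial iron carriers, and macrophages can also make it. It had 0.267 and 0.182 CPM in HFD1 and HFD2, and 8.17 and 4.3 CPM in CD1 and CD2, a fall of 27.3-fold (log2 fold change -4.77, SE 0.48, adjusted p = 0.00935). In the fits without 1 library the log2 fold change ran from -5.17 to -4.24. Lcn2 had 10 and 7 counts in HFD1 and HFD2, so it passed the minimum in HFD1 but not in HFD2. Ngp, the neutrophilic granule protein gene, had 1 and 0 counts against 25 and 11 counts and was called lower (adjusted p = 0.0417), with a ratio of control to high-fat diet of 39.2 (exact 95% interval 6.6 to 1591, counting error only). Ngp passed the minimum through CD1 and CD2 alone, so a difference in it was built into the filter. Mmp8, the neutrophil collagenase gene, had 2.08 and 2.01 CPM against 11.2 and 2.47 CPM, so CD2 lay close to HFD1 and HFD2, and it was not called by edgeR (adjusted p = 0.139). DESeq2 called it (adjusted p = 0.03), and its log2 fold change of -1.73 was -0.27 without CD1 and -2.45 without CD2. Ltf, the lactoferrin gene, had 0.16 and 0.287 against 0.493 and 0.188 CPM, with the diets overlapping (adjusted p = 0.604). Camp, the cathelicidin gene, had 1 and 1 against 9 and 4 counts and was not tested. The call of Ngp ended without HFD1 (log2 fold change -7.26, adjusted p = 0.159) and without HFD2 (-4.13, 0.197), and without CD1 it was too low to test.

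Ly6g and Retnlg, markers of mature neutrophils, were called lower. Both passed the minimum through CD1 and CD2 alone, so a difference in them was built into the filter. Ly6g, the surface antigen by which mouse neutrophils are sorted, had 0 and 0 counts in HFD1 and HFD2 and 10 and 30 counts in CD1 and CD2. Against 3 counts over the diet, it was at least 14.5-fold lower (adjusted p = 0.039), and unlike the alarmins it was higher in CD2. The floor of 3 counts corresponds to 0.0782 to 0.0925 CPM per library. Retnlg, which encodes a resistin-like protein of neutrophils, had 0.0801 and 0.156 CPM against 22.6 and 2.34 CPM. It fell 102-fold (log2 fold change -6.67, SE 1.30, adjusted p = 0.0335), and its control-diet mice differed 9.66-fold (exact 95% interval 7.73 to 12.2). Calls of Ly6g (adjusted p = 0.146 and 0.126) and Retnlg (0.521 and 0.388) ended without HFD1 and without HFD2. Ly6g could not be tested without CD2. The log2 fold change of Retnlg was -4.26 without CD1 and -7.53 without CD2, and with no filter on low counts its adjusted p was 0.264.

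The stefin A genes encode small inhibitors of cysteine proteases and lie on chromosome 16, and parts of some of them share sequence. Stfa2l1 had 2 and 0 counts in HFD1 and HFD2, and 14 and 11 counts in CD1 and CD2 (adjusted p = 0.0669), a ratio of 13.6 (exact 95% interval 3.39 to 119, counting error only). Stfa2l1 passed the minimum through CD1 and CD2 alone, so a difference in it was built into the filter. Stfa1 had 1, 1, 0 and 1 counts, and Stfa2 and Stfa3 had 0 in each library, which allows up to 3 counts per library. Of the 50-base windows of the Stfa2l1 transcript 24.6% occur also in transcripts of other genes, mostly Stfa2. For Stfa1 the share was 26.9%, mostly in BC100530, for Stfa2 it was 15.9%, and for Stfa3 it was 0%. The sources used here do not say how reads that match several genes were counted, so the split between Stfa1, Stfa2 and Stfa2l1 is uncertain. The log2 fold change of Stfa2l1, -3.61, was -6.71 without HFD1 and -2.67 without HFD2, and with no filter on low counts it was called lower (adjusted p = 0.0364).

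Of the 3 receptors of chemoattractants Cxcr2 fell, and Fpr1 and Fpr2 were not called. CXCR2 is the receptor by which neutrophils follow the chemokines CXCL1 and CXCL2, while FPR1 and FPR2 sense formylated peptides and are found on neutrophils, monocytes and macrophages. Cxcr2 (chromosome 1, 74153989 to 74161246) had 0.774 and 0.521 CPM in HFD1 and HFD2, and 18.4 and 3.52 CPM in CD1 and CD2. It fell 16.8-fold (log2 fold change -4.07, SE 0.82, adjusted p = 0.0364), and CD1 exceeded CD2 5.23-fold. Fpr2 had 34.7 and 34.1 against 28.9 and 33.9 CPM (log2 fold change 0.13, SE 0.15, adjusted p = 0.583). Fpr1 had 7.61 and 10.3 against 6.41 and 7.02 CPM (log2 fold change 0.42, SE 0.24, adjusted p = 0.273). For both Fpr genes HFD1 and HFD2 lay narrowly above CD1 and CD2, without a call. Of the 50-base windows of Fpr2, 37.2% occur in another gene, mostly the gene model Gm5966, and Fpr3, a model that overlaps it on the same strand, had 0 counts in each library, so its level is uncertain. The call of Cxcr2 ended without HFD1 (adjusted p = 0.39), without HFD2 (0.326) and with no filter on low counts (0.257). Its log2 fold change was -2.43 without CD1 and -4.82 without CD2.

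**Figure D2:**
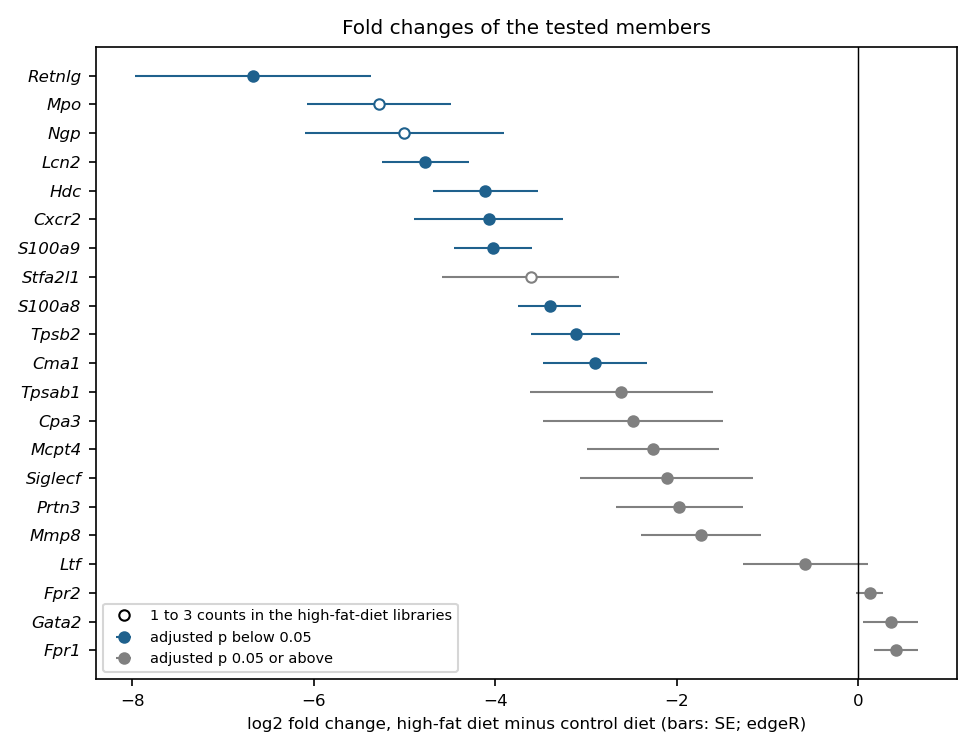
Log2 fold change (high-fat minus control diet) with its standard error for 21 of the tested members, blue where the adjusted p is below 0.05. Ly6g is left out because its high-fat-diet libraries hold 0 counts, and open symbols mark members with 1 to 3 counts there. Values run from -6.67 for Retnlg to 0.42 for Fpr1.

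Hdc fell, and it was the most abundant gene of the mast cell and basophil group per kilobase on average over CD1 and CD2 (6.06 CPM, and 0.351 CPM in HFD1 and HFD2). It encodes histidine decarboxylase, which makes histamine, and besides mast cells and basophils it is used by neutrophils and immature myeloid cells. Hdc (chromosome 2, 126593667 to 126619299) had 2.3 and 2.19 CPM in HFD1 and HFD2, and 59.2 and 18.3 CPM in CD1 and CD2. The high-fat-diet mice were nearly equal, and CD1 exceeded CD2 3.24-fold (exact 95% interval 2.97 to 3.54). The log2 fold change was -4.11 (SE 0.58, adjusted p = 0.0171), and it was -3.02 without CD1 and -4.72 without CD2. The call ended without HFD1 (adjusted p = 0.319), without HFD2 (0.225) and with no filter on low counts (0.158).

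The mast cell proteases Tpsb2 and Cma1 fell too. Tpsb2, a tryptase gene, had 0.347 and 0.182 CPM in HFD1 and HFD2, and 2.84 and 1.8 CPM in CD1 and CD2, a fall of 8.66-fold (log2 fold change -3.11, SE 0.49, adjusted p = 0.0219). Cma1, the connective tissue mast cell chymase gene (chromosome 14, 55941451 to 55944675), had 0.267 and 0.104 against 1.66 and 1.16 CPM, a fall of 7.48-fold (log2 fold change -2.90, SE 0.57, adjusted p = 0.0338). In both the diets were apart. Tpsab1, Cpa3 and Mcpt4 were apart as well but not called, and 31.6% of all tested genes lay apart and lower in the high-fat diet. These protease genes passed the minimum through CD1 and CD2 alone, so a difference in them was built into the filter. Tpsab1, the other tryptase gene, had 0.134 and 0 against 0.524 and 0.323 CPM (adjusted p = 0.144). Cpa3, the carboxypeptidase A3 gene, had 0.16 and 0 against 0.462 and 0.457 CPM (adjusted p = 0.15). Mcpt4, a chymase gene, had 0.16 and 0.13 against 1.08 and 0.349 CPM (adjusted p = 0.0963). No 50-base window of Tpsb2 or Tpsab1 occurs in another annotated gene, so the tryptases can be told apart at that length, and 5.38% of those of Cma1 and 5.48% of those of Mcpt4 do. Calls of Cma1 ended without HFD1 (log2 fold change -3.69, adjusted p = 0.0798) and without HFD2 (0.151), and that of Tpsb2 ended without HFD2 (0.0883). Mcpt4 was called lower without CD2 (adjusted p = 0.0126) and with no filter on low counts (0.0403).

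The basophil protease gene Mcpt8 and the IgE receptor chain genes Fcer1a and Ms4a2 had 8 counts or fewer in each library. Mcpt8, a protease of mouse basophils, had 2 and 0 counts in HFD1 and HFD2, and 8 and 2 counts in CD1 and CD2. For Fcer1a, the alpha chain of the high-affinity IgE receptor, the counts were 2 and 0 against 3 and 3. Ms4a2, its beta chain, had 0 and 0 against 7 and 2 counts, at least 3.27-fold lower against 3 counts over the diet. None of these 3 reached the minimum for the test, and with no filter on low counts their adjusted p was 0.391, 0.646 and 0.141. Gata2, a transcription factor of mast cells and progenitors, had 10.1 and 11.2 CPM against 10.6 and 5.97 CPM, with the diets overlapping (adjusted p = 0.447). Per kilobase its level was 1.54 CPM on average in CD1 and CD2, where Fcer1a was at 0.0867 and Ms4a2 at 0.0479 CPM.

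Eosinophil transcripts stood high in 1 library, CD1. Prg2, the major basic protein gene (chromosome 2, 84980461 to 84983632), had 57 counts in CD1 and 0 in each of the other 3 libraries. Against the floor of 3 counts it was at least 21.8-fold higher in CD1 than in CD2. Epx, the eosinophil peroxidase gene, had 7 counts in CD1 and 0 elsewhere. Siglecf, which encodes a sialic acid receptor of eosinophils and alveolar macrophages, had 10.2 CPM in CD1, 1.02 CPM in CD2 and 1.5 and 1.09 CPM in HFD1 and HFD2. The diets therefore overlapped, and its log2 fold change of -2.11 (SE 0.95, adjusted p = 0.187) was 0.34 without CD1. DESeq2 called it lower (adjusted p = 0.0468), as did edgeR without CD2 (0.000269). Prg2 and Epx were below the minimum for the test in the fit of all libraries. Without CD2, where CD1 stands alone for its diet, Prg2 entered the test through CD1 alone. A difference in it was then built into the filter.

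Members differed between CD1 and CD2 as well. The CPM ratio of CD1 over CD2 had an exact 95% counting interval above 1 for 15 of the 28 members that gave one and below 1 for 2, Fpr2 and Ly6g. Between HFD1 and HFD2 the interval lay above 1 for 0 and below 1 for 1 of 21 members, Fpr1. These intervals cover counting error only. Counts of most members were lower in HFD1 and HFD2, so many intervals there were wide, as for Mpo (0.0131 to 80.4) and Retnlg (0.0829 to 2.4). The tallies therefore cannot show which diet's mice differed more. Within the control diet the ratio was 10 for Siglecf, 9.66 for Retnlg, 5.23 for Cxcr2 and 4.51 for Mmp8 (exact 95% interval 3.58 to 5.74), 2.23 for S100a9, 1.74 for S100a8 and 1.9 for Lcn2. For Tpsb2 it was 1.57 (1.14 to 2.19), and the intervals of Cma1 (0.947 to 2.2) and Cpa3 (0.47 to 2.15) included 1. The classical monocyte markers summed to 1654 CPM in CD1 and 644 CPM in CD2, and their part in the ratios of the members was not tested.

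**Figure D3:**
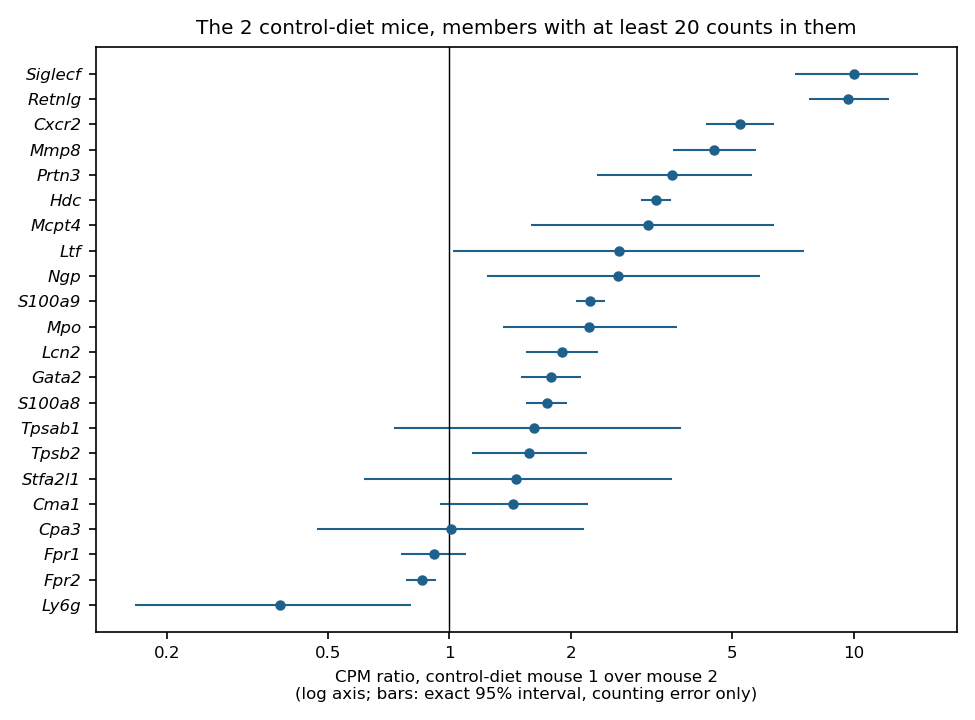
CPM ratio of CD1 over CD2 on a log axis, with its exact 95% counting interval, for members with at least 20 counts in these libraries. Siglecf and Retnlg lie near 10, the mast cell proteases Tpsb2, Cma1 and Cpa3 between 1.01 and 1.57, and Ly6g at 0.382.

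Summed by role, the alarmins stood at 4.7 and 3.62 CPM in HFD1 and HFD2 and at 78.1 and 37.9 CPM in CD1 and CD2. Primary granule genes summed to 0.668 and 0.417 against 4.9 and 1.64 CPM, and secondary and tertiary granule genes to 2.56 and 2.5 against 20.9 and 7.37 CPM. Mast cell and basophil mediators summed to 3.42 and 2.61 against 66 and 22.4 CPM, most of it Hdc. For these roles, and for the surface, secreted and stefin genes (0.16 and 0.182 against 23.3 and 3.47 CPM), the diets were apart. Receptors of chemoattractants (43.1 and 45 against 53.7 and 44.4 CPM), the group of Gata2 and the IgE receptor chains (10.1 and 11.2 against 10.9 and 6.1 CPM) and eosinophil genes (1.5 and 1.09 against 12.2 and 1.02 CPM) overlapped between the diets.

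**Figure D4:**
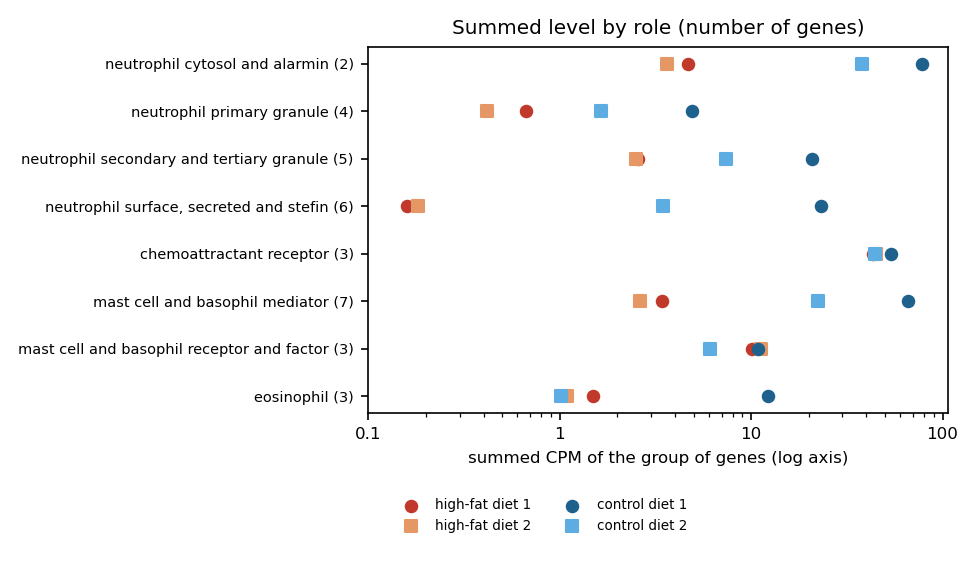
Summed CPM of the genes of each role in each library on a log axis, with the number of genes in brackets. The 4 neutrophil roles other than receptors and the mast cell and basophil mediators lie apart by diet, and eosinophil genes stand high in CD1 alone, at 12.2 CPM.

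Other genes of the same cells, from lists that hold none of the 33, gave 11 called lower and 3 called higher of 51 tested among 77, beside 7.91% and 2.61% of all tested genes. Of the 11, Asprv1, Mcpt2 and Csf3 passed the minimum through CD1 and CD2 alone, so a difference in them was built into the filter. Of 30 further neutrophil genes 23 were tested, 8 fell and 0 rose by edgeR (1 with an unadjusted p below 0.05, and 1 by DESeq2). Pglyrp1, a peptidoglycan recognition protein of neutrophil granules, had 0.881 and 1.2 CPM against 18.1 and 11.2 CPM, a fall of 14-fold (log2 fold change -3.81, SE 0.34, adjusted p = 0.00709) that was called in each of the fits without 1 library. Asprv1, a protease gene, had 0 and 2 against 81 and 58 counts, a ratio of 75.7 (exact 95% interval 20.6 to 631, counting error only, edgeR adjusted p = 0.0148). Its log2 fold change of -6.09 was -5.17 without HFD1 and -9.17 without HFD2. Trem1, an amplifying receptor of myeloid cells, fell 3.05-fold from 267 ± 81 to 87.4 ± 20.3 CPM (SD, n = 2, edgeR adjusted p = 0.0255). The decoy receptor gene Il1r2 fell 4.12-fold (adjusted p = 0.0212), Trem3 3.51-fold (0.0326) and the leukotriene B4 receptor gene Ltb4r1 4.61-fold (0.0205). Ifitm6 fell 12.8-fold (adjusted p = 0.0395) and G0s2 26.8-fold (0.0223). Csf3r, the receptor gene for the growth factor G-CSF, had 80.8 and 83 against 138 and 71.6 CPM (adjusted p = 0.45), with the diets overlapping.

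Of these calls, those of Trem1 (adjusted p = 0.1), Il1r2 (0.0765), Trem3 (0.159), Ltb4r1 (0.157), Ifitm6 (0.488) and G0s2 (0.245) ended without HFD1. Without HFD2 those of Trem3 (0.092), Ltb4r1 (0.0935), Ifitm6 (0.354) and G0s2 (0.138) ended. With no filter on low counts Ifitm6 had an adjusted p of 0.29 and G0s2 of 0.17. The log2 fold change of Ifitm6, -3.67, was -2.0 without CD1 and -4.43 without CD2. That of G0s2, -4.74, was -5.54 without HFD2, -3.56 without CD1 and -5.39 without CD2.

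Of 20 further mast cell and basophil genes 9 were tested, and 1, Mcpt2, was called lower (7.91% of all tested genes were). Mcpt2, a protease of mucosal mast cells, had 0.107 and 0.104 CPM in HFD1 and HFD2, and 2.07 CPM in each of CD1 and CD2. The fall was 19-fold (log2 fold change -4.25, SE 0.44, adjusted p = 0.00962), and the log2 fold change ran from -4.25 to -4.21 in the fits without 1 library. Mcpt2 passed the minimum through CD1 and CD2 alone, so a difference in it was built into the filter. Kit, the stem cell factor receptor of mast cells, had 3.98 and 4.48 against 26.2 and 7.39 CPM (adjusted p = 0.0736). Fcer1g, a signalling chain that macrophages share, had 808 and 871 against 583 and 599 CPM (adjusted p = 0.0848). Mcpt1, chosen after its values were seen, had 1, 1, 1 and 49 counts, with CD2 the exception. Of 8 further eosinophil genes 4 were tested and edgeR called 0, with 2 at an unadjusted p below 0.05 and 2 called lower by DESeq2. Of these, 3 stood high in CD1: Alox15, a lipoxygenase gene, at 26.8 against 0.86 CPM in CD2, Ear2, an eosinophil ribonuclease gene, at 19.9 against 1.18 CPM, and Ccr3, the eotaxin receptor gene, at 5.67 against 0.161 CPM. Il5ra, the receptor chain for the eosinophil growth factor IL-5, was chosen after its values were seen and had 36 counts in CD1 and 0 in each other library, as Prg2 did.

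Of 19 genes that attract or feed these cells 15 were tested, 2 were called lower and 3 higher, where 7.91% and 2.61% of all tested genes were. Cxcl1, a ligand of CXCR2, rose 1.75-fold from 11 and 10.1 CPM in CD1 and CD2 to 18.1 and 18.7 CPM in HFD1 and HFD2 (adjusted p = 0.039), while Cxcr2 fell. Cxcl2, another ligand, had 258 and 267 against 362 and 366 CPM (adjusted p = 0.0854). Ppbp, a platelet chemokine gene, rose 8.66-fold from 0.0617 and 0.0807 to 0.694 and 0.599 CPM (adjusted p = 0.0318), with 2 and 3 counts in CD1 and CD2. It passed the minimum through HFD1 and HFD2 alone, so a difference in it was built into the filter. Kitl, the stem cell factor gene, rose 3.1-fold from 12.6 and 16.1 to 59.9 and 29.4 CPM (adjusted p = 0.0394). Csf3, which encodes G-CSF, had 3 and 0 against 26 and 26 counts and was called lower (adjusted p = 0.0403), a ratio of control to high-fat diet of 18.9 (exact 95% interval 6.11 to 94.5, counting error only). Csf3 passed the minimum through CD1 and CD2 alone, so a difference in it was built into the filter. Ltb4r2, a leukotriene B4 receptor gene, fell 4.31-fold (adjusted p = 0.0243). Ccl24, an eotaxin gene chosen after its values were seen, had 53.9 CPM in CD1 and 0.32 to 0.547 CPM in the other 3 libraries.

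All 5 of these calls ended without HFD1 (adjusted p = 0.217 for Cxcl1, 0.253 for Ppbp, 0.112 for Kitl, 0.0743 for Csf3 and 0.133 for Ltb4r2). All but that of Kitl ended without HFD2 (0.191 for Cxcl1, 0.17 for Ppbp, 0.161 for Csf3 and 0.114 for Ltb4r2). That of Kitl ended also without CD1 (0.0748), without CD2 (0.0531) and with no filter on low counts (0.0744). The log2 fold change of Csf3, -4.13, was -7.75 without HFD1 and -3.15 without HFD2.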

How the data were processed

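RNA of 4 libraries of sorted tumour macrophages was measured, 2 per diet. The deposited table holds whole-number counts per gene, not normalised by the authors, judging from the values. Per the submitters' processing notes, the tools included BWA 0.7.12, DESeq2 1.24.0, FastQC 0.11.5 and cutadapt 1.15, and the builds GRCm38 and mm10, with no role stated. Which program counted the reads, with which strand setting and annotation, is not given in the sources used here. Per the labels' protocols the libraries came from a stranded polyA kit.

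Symbols were matched for 53274 of 53379 identifiers. Lengths came from GENCODE M21 on GRCm38, and coordinates are given only where the identifier's version was the same. Genes passing filterByExpr (minimum count 10, which is 0.27 CPM here, in at least 2 libraries, and minimum total 15) entered the quasi-likelihood test of edgeR 4.0.16 (R 4.3.3) with TMM scaling, diet as the only term and Benjamini-Hochberg adjustment over all 18422 genes. Each SE was obtained by dividing the absolute log2 fold change by the root of its F statistic. CPM are relative to TMM-scaled library sizes. Ratios where a diet held 1 to 3 counts, and ratios between the mice of a diet, have exact conditional 95% intervals, which cover counting error only, as reads carry no molecular identifiers. Folds against 0 counts use 3 counts over the diet or library. The alternatives were DESeq2 1.42.0, its size factors in edgeR, no filter on low counts, mouse number as a term, and leaving out each library. The steps were tested on simulated data with the same spread for every gene and changes only in genes above a minimum count. That test does not cover members with few counts or with a wide spread between mice.

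The members and lists were chosen with earlier results of these data known. All members are named, and of each list up to 4 genes of smallest p and any called gene of granulocyte lists. Csf3r, Cxcl2 and the macrophage genes C1qa, Cd68, Adgre1 and Itgam are named outside this rule. Mcpt1, Il5ra, Ccl24, Cdh1 and Cldn3 were chosen after their values were seen. The titles give each library its own mouse. Whether equal mouse numbers share a cage or day is not given, and across 10312 genes the differences between mouse 1 and mouse 2 had a correlation of -0.19 between the diets.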

Additional observations from a re-analysis of the deposited data

How the results depend on the processing

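With 2 mice per diet, a fit that leaves out 1 library takes its spread from the other diet's pair alone and assumes that the lone library varies likewise. Members called lower, 11 with all libraries, ran from 2 to 15 in these fits, other granulocyte genes called lower, 11, from 3 to 34, and those called higher, 3, from 0 to 4. DESeq2 called 24 other granulocyte genes lower and 6 higher, and without a filter on low counts 5 were called higher. Over all genes, 1457 lower and 480 higher, leaving out 1 library gave 300 to 2534 lower and 71 to 1934 higher. DESeq2 called 1082 genes higher, and without the filter 2231 were lower and 1552 higher. Direction turned for 2 members that were not called: the log2 fold change of Ltf ran from -1.13 to 0.25 and that of Siglecf from -2.98 to 0.34, with the positive values without CD1. All 11 members called were called too by DESeq2 (13 in all) and with its size factors (11), and 8 of them without the filter (10 in all, with Stfa2l1 and Mcpt4 gained). The mouse numbers are not said to pair the libraries. With the mouse number as a replicate block 12 members were called lower, Prtn3 (adjusted p = 0.0493) added and none lost, and of the other genes named Cxcl1 lost its call (0.0637). A crossed replicate block, chosen after seeing the data, gave 9 members called lower and 0 higher, 11 and 4 other granulocyte genes, and 1546 and 909 of all genes. The cause of these changes was not tested. Depth limits the 11 members below the minimum, where a library of 0 counts allows up to 3.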
